A study of Mus musculus with 3 samples.

Results

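The genes described here are 10 imprinted genes of interest in reprogramming: H19, Dlk1, Meg3, Rian, Peg3, Peg10, Mest, Plagl1, Ndn and Grb10. They were chosen by name, and their probes were found through the RefSeq accession that the array files give for each probe. Of the 10 genes, 8 were matched, with 18 of the 39429 probes on the array, among 20825 genes that could be named. H19 and Rian were not matched to a probe and have no value here. Of the 8 matched genes, Dlk1, Meg3, Mest, Plagl1, Ndn and Grb10 (6 genes) were well above background on all 3 arrays, Peg10 was so on 2 arrays, and Peg3 on none.

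Tail-tip fibroblasts, connective tissue cells grown out of mouse tail tips, had received Oct4, Sox2, Klf4 and c-Myc, the 4 reprogramming factors, and their RNA was taken on day 8 and measured on 1-colour oligonucleotide microarrays. The Young group came from wild-type (WT) mice aged 2 months, the Old group from WT mice aged 22 months, and the Old p16-/- group from mice aged 22 months that lack p16, a cell cycle inhibitor encoded by Cdkn2a. All 3 groups carried the 4 factors and were collected on the same day. The strain and sex of the donors, how many mice went into an array, and how p16 was deleted are not given in the sources used here. The design mentions 2 independent experiments, and 1 array per group was analysed, so no test was run, no difference has a replicate check, and p-values are absent throughout.

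Imprinted genes are transcribed mainly from the copy inherited from one parent. Control regions that carry DNA methylation on that parent's or the other parent's copy set the choice, and many of these genes promote or restrain growth in the embryo and fetus. H19, Meg3, Rian and Grb10 are mainly transcribed from the maternal copy, and Dlk1, Peg3, Peg10, Mest, Plagl1 and Ndn from the paternal copy. The domain that runs from Dlk1 past Meg3 and Rian to Dio3 is known in reprogramming because Meg3 and Rian are silenced in many mouse induced pluripotent stem cell lines that contribute poorly to chimaeras. A microarray sums the transcripts of both parental copies, so none of the values below says which copy was transcribed.

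Between 57.4% and 61.6% of the 43020 non-control spots were well above background on an array. All 12 fibroblast markers were above background on all 3 arrays, with summed signals of 1347189 on Young, 1374505 on Old and 1247893 on Old p16-/-. Single markers differed more than these sums. For Old p16-/- over Old, 2 of the 12 were at least 2-fold higher and 1 lower. Among all counted genes 5.89% were that much higher and 6.61% lower. The lower marker was Thy1, which read 69467, 52045 and 3287. The higher ones were Pdgfra, which read 651, 884 and 2682, and Fap, which read 450, 587 and 1668. Other cell types also left signal. Of 11 macrophage and leukocyte markers, 10 were above background on Young, 10 on Old and 4 on Old p16-/-, and their summed processed signal was 40706, 24644 and 16818. Itgam alone gave 19992, 19071 and 14934 of these sums by its brightest probe. Another Itgam probe read 136, 65.2 and 55.7, and its remaining probe was not above background on any array. Adgre1, which encodes the macrophage marker F4/80, had 1153, 155 and 13.1, the last not above background. Of 6 Schwann cell and melanocyte markers, 5 were above background on each array, with summed signals of 6626, 11518 and 17290. Of 7 myoblast and skeletal muscle markers, Myod1, Myf5, Myog and Des were not above background on any array, and the list's summed signal was 8118, 7308 and 1776, nearly all of it Acta1. Of 7 preadipocyte and adipocyte markers, 5 were above background on each array, with summed signals of 4188, 4488 and 6618. Of 7 pluripotent cell markers, 4 were above background on each array, and neither Pou5f1 nor Zfp42 was on any. Pou5f1 is the gene of Oct4, and whether its probe detects RNA of the factor the cells had received was not tested. Nanog read 264, 217 and 196 by its brightest probe, while another Nanog probe was not above background on any array (15.9, 10.2 and 13.4). Endothelial markers (3 of 5 on each array) had sums of 6526, 6515 and 6535, and keratinocyte markers (3, 4 and 4 of 5) had 10542, 8897 and 9627. Kdr gave 5830, 6041 and 6167 of the endothelial sums, while another Kdr probe read 280, 161 and 114. Trp63 gave 5963, 5725 and 5124 of the keratinocyte sums. Another Trp63 probe read 13.5, 65 and 155, the first not above background. The Y-linked genes Eif2s3y and Ddx3y were above background on Young and on neither old array, and Xist, the noncoding RNA that coats the inactive X, on both old arrays and not on Young. Every ratio against Young therefore sets arrays of different sex-linked expression side by side, which cannot be told apart from age. The part of these marker differences in the results below was not tested. In bulk RNA, fewer cells of a type and less RNA per cell cannot be told apart.

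Promoter sequence was taken from RefSeq on build GRCm38.p6, as the 250 bases before an annotated start site, 5′ to 3′ on the gene's strand. It is shown for Dlk1 and Meg3, which lie in one imprinted domain, and for Plagl1, the gene with the largest ratio in the other direction. Capitals mark CG dinucleotides, the sites at which imprints are written as DNA methylation. The windows are chr12:109452573-109452822 (plus strand) for Dlk1, chr12:109540746-109540995 (plus strand) for the first of 2 annotated Meg3 starts, and chr10:13090582-13090831 (plus strand) for Plagl1.
Dlk1: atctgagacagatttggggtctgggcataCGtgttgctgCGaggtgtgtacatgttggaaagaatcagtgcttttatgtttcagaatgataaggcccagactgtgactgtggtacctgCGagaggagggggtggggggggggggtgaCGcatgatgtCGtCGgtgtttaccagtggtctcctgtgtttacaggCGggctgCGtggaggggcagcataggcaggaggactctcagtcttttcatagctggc
Meg3: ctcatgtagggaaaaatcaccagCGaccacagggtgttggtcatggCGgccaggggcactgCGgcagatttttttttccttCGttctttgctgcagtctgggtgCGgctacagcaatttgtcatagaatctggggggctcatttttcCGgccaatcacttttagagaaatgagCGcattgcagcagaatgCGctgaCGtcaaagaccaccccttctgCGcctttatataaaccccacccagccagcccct
Plagl1: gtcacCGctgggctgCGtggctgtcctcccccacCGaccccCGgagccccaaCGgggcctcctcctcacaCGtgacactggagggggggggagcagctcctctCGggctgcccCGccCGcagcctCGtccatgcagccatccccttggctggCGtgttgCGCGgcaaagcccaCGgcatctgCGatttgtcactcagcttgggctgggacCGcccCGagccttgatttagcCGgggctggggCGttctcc

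These windows held 8, 10 and 19 CG dinucleotides for Dlk1, Meg3 and Plagl1. Over all 32851 promoter windows of this length in the table the median was 6, and 43%, 37.8% and 19.7% of windows held at least as many as those of Dlk1, Meg3 and Plagl1. Grb10 had the densest window of the set, with 40 CG dinucleotides before 1 of its 2 annotated starts (1.31% of windows held as many) and 8 before the other. Across the 12 annotated starts of the 8 genes with an entry (Rian included; H19 and Peg10 had none), 9 lay above the median, against 46.3% of all windows. The letters TGCCGC, bound by the imprint-keeping factor Zfp57 when methylated, were searched on both strands and stood in 4 of the 12 windows, against 8.68% of all windows. These 4 were the windows shown for Meg3 and Plagl1 and those of a pair of Mest starts that lie 3 bases apart. The letters TATAAA were in 1 of the 12 windows, that of Meg3, where a match on each strand overlapped (12.4% of all windows), and the Plagl1 motif GGGGCCCC in 1, that of Peg3 (0.889%). No DNA methylation was measured in these samples.

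Meg3, a long noncoding RNA, was lower on Old p16-/- than on Old or Young. The processed signal of its brightest probe was 15114 on Young, 21786 on Old and 5897 on Old p16-/-. Old stood highest and Old p16-/- lowest. On the log2 scale, after each array's 75th percentile was subtracted, Old p16-/- was at -1.89 relative to Old, 3.71-fold lower. Old was at 0.59 relative to Young, 1.5-fold higher. The other probes of Meg3, both above background on all 3 arrays, showed the same order of arrays. One read 2713, 3715 and 794, with -2.23 for Old p16-/- over Old, and the other read 244, 312 and 76, with -2.04. Feature Extraction, the scanner software, estimated the error of a single spot at 10% to 13.3% of its signal for the probes of these genes that were above background with a signal of at least 100. That error covers the spot, not the biology. Repeated spots of a probe on the same array had a median SD of 0.0546 to 0.0571 on the log2 scale, which holds no variation between arrays.

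Dlk1, a membrane protein related to the Notch ligands that holds preadipocytes undifferentiated, was highest on Young and lowest on Old p16-/-. Its brightest probe read 1560 on Young, 578 on Old and 198 on Old p16-/-. Each step down was of similar size on the log2 scale. Old was at -1.37 relative to Young (2.59-fold lower) and Old p16-/- at -1.55 relative to Old (2.93-fold lower). From Young to Old p16-/- the difference was 7.58-fold. A dimmer probe read 139, 50.5 and 10.4, the last not well above background. It gave -1.41 for Old over Young and allows only a bound for Old p16-/- over Old, at least 1.08-fold lower. With normexp background correction, which adds an offset of 50 to each spot, the ratio of the brightest probe was -1.27 for Old p16-/- over Old. As the mean of its probes, the bound included, Dlk1 was at -0.83, under the 2-fold limit. The order of the arrays for Dlk1 was also that of Grb10 and Ndn, described below, and of the macrophage marker Adgre1. The part of macrophages in these values was not tested. Of the 11 macrophage and leukocyte markers, 9 lay below 0 for Old p16-/- over Old, as did 6864 of all 14695 counted genes. Of these 11 ratios, 8 were bounds. The 2 above 0 were Aif1 at 1.31 (signals of 247, 74.9 and 186) and Ptprc, by a bound of 1.32. Apoe had the ratios nearest to those of Dlk1 over the 3 arrays (-1.15 and -1.52). Gsg1 (-1.15 and -1.85) and Epha1 (-1.62 and -1.19) came next.

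Grb10, an adaptor protein that restrains insulin and Igf receptor signalling, followed the same order as Dlk1. Its single probe read 2572 on Young, 1589 on Old and 605 on Old p16-/-. Old was at -0.63 relative to Young, 1.55-fold lower, and Old p16-/- at -1.40 relative to Old, 2.63-fold lower. Old p16-/- was 4.09-fold below Young. No other probe of Grb10 was matched, so its ratios rest on 1 spot per array.

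Ndn encodes necdin, a growth suppressor of the MAGE family. Its single probe read 1100 on Young, 745 on Old and 526 on Old p16-/-. The steps were small and alike, at -0.50 and -0.51, and Young and Old p16-/- were 2.01-fold apart (-1.01). That value lies at the edge of 2-fold, the size used here to count a gene as apart, and was -0.91 with normexp and -0.99 with quantile normalization.

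Plagl1, a zinc finger transcription factor that arrests the cell cycle and activates other imprinted genes, was higher on Old p16-/-. Its brightest probe read 2711 on Young, 3649 on Old and 13048 on Old p16-/-. Old p16-/- stood far above both WT arrays, at 1.83 relative to Old (3.56-fold) and 2.32 relative to Young (5-fold). Old was at 0.49 relative to Young. A second probe of similar brightness read 2242, 3116 and 11179, with 1.84 for Old p16-/- over Old.

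The remaining probes of Plagl1 did not show that difference. Another probe, above background on all 3 arrays, read 285 on Young, 397 on Old and 209 on Old p16-/-. Its ratio for Old p16-/- over Old was -0.93, the other direction, whereas its ratio for Old over Young, 0.54, was like those of the bright probes (0.49 and 0.53). The dimmest probe read 32.3, 54.7 and 78.5, the first not above background, with 0.52 for Old p16-/- over Old. All 4 probes carry the same transcript accession. Averaged over the probes, Plagl1 was at 0.81 for Old p16-/- over Old, under the 2-fold limit. The other zinc finger gene, Peg3, was not above background by either of its probes, whose highest reading was 44.6, on Old p16-/-.

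**Figure D1:**
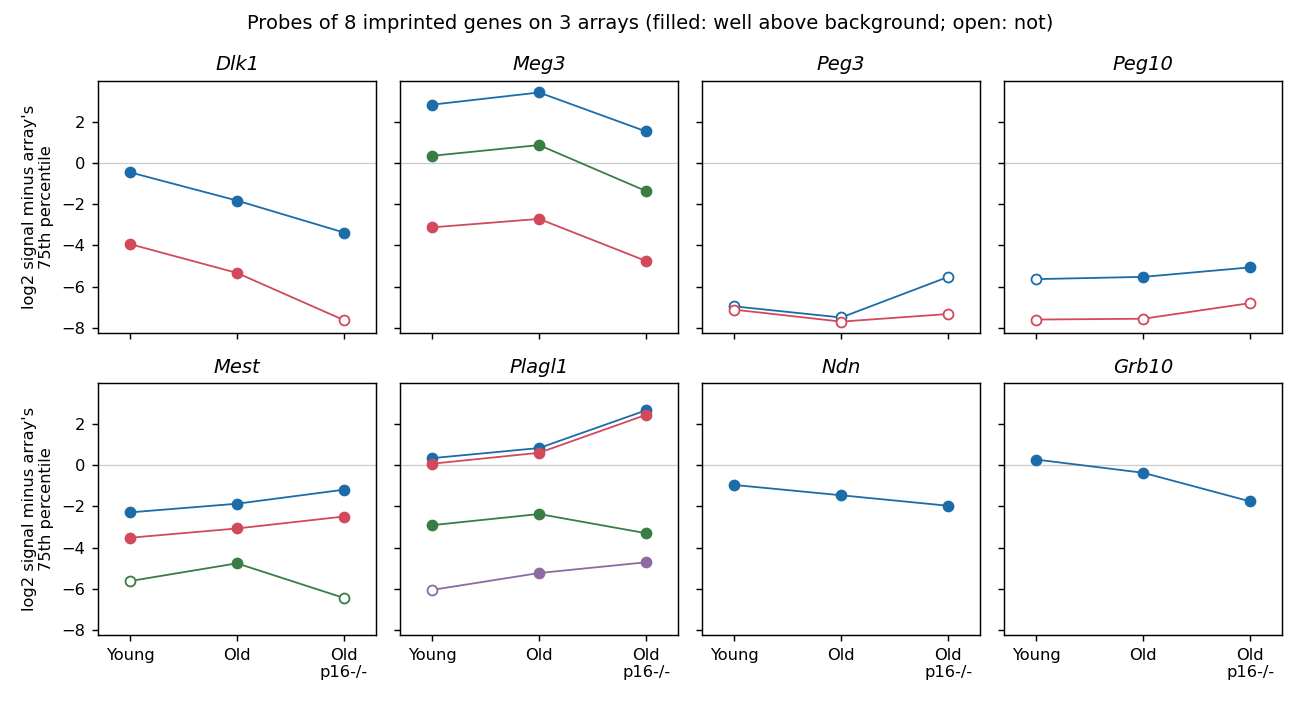
Log2 processed signal minus the array's 75th percentile (vertical axis) on the Young, Old and Old p16-/- arrays (horizontal axis) for every probe of the 8 matched genes, 1 line per probe, with filled points where the probe was well above background. The 3 Meg3 lines run in parallel, whereas 1 of the 4 Plagl1 lines is lowest on Old p16-/- where the bright pair is highest.

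Mest, a protein with a hydrolase fold, was lowest on Young and highest on Old p16-/- by the brighter pair of its 3 probes. Its brightest probe was spotted 10 times on each array, which gives the scatter between spots of the same array only. The spots read from 392 to 481 on Young, with a mean of 439 ± 23.1 (SD over 10 spots). They read from 525 to 598 on Old, with a mean of 563 ± 27.1, and from 836 to 992 on Old p16-/-, with a mean of 903 ± 46.2. The ranges of the 3 arrays did not overlap. Spots are repeats on an array and not replicates of a group. The ratio was 0.42 for Old over Young, 0.68 for Old p16-/- over Old and 1.10 for Old p16-/- over Young (2.14-fold). A second probe read 186, 244 and 366, with 0.45, 0.58 and 1.03. The remaining dim probe did not show that order. It read 43.5, 75.7 and 23.6, above background on Old alone, and gave a bound of -0.69 for Old p16-/- over Old, the other direction. As the mean of its probes, Mest was at 0.19 in that comparison. Its ratio for Old p16-/- over Young was 0.95 with normexp, under 2-fold.

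**Figure D2:**
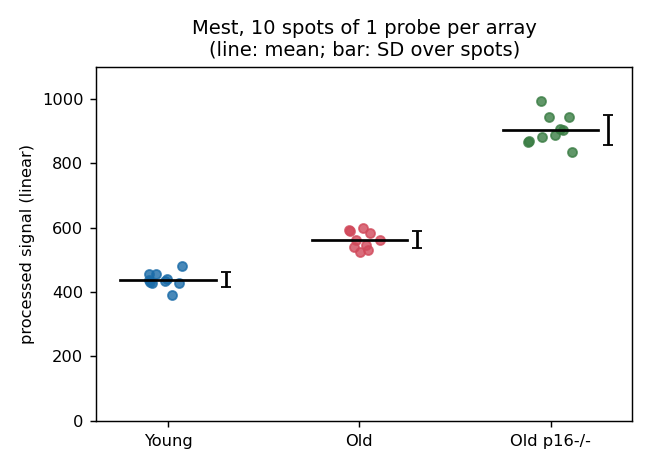
Processed signal on a linear scale (vertical axis) of the 10 spots of the brightest Mest probe on each array (horizontal axis); the black line is the mean and the bar the SD over spots. The spots lie between 392 and 481 on Young, 525 and 598 on Old, and 836 and 992 on Old p16-/-.

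Peg10, derived from a retrotransposon, sat at the edge of detection. Its brighter probe read 42.8 on Young, not above background, 44.3 on Old and 61.1 on Old p16-/-, and its ratio for Old p16-/- over Old was 0.46. Its other probe was not above background on any array.

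The other genes of the Dlk1 domain on chromosome 12 were lower on Old p16-/- than on Old where they could be measured. Mirg, a noncoding RNA that hosts microRNAs, read 1822 on Young, 2334 on Old and 674 on Old p16-/-. Its ratios, 0.42 for Old over Young and -1.80 for Old p16-/- over Old, were close to those of Meg3, at rank 13 of 8911 genes by distance from the Meg3 pair of ratios. Dio3, which encodes a deiodinase that inactivates thyroid hormone, read 1130, 5299 and 2271. It was at 2.29 for Old over Young, unlike Dlk1, and at -1.23 for Old p16-/- over Old. By distance from the Meg3 pair of ratios, Dio3 stood at rank 2219 of 8911 and Dlk1 at rank 3868. Begain, at the Dlk1 side of the domain, read 431, 281 and 208, with -0.56 and -0.44. Its rank by distance from the Dlk1 pair of ratios was 171 of 8912. Rtl1 was not above background on any array. By their brightest probes, Dlk1, Meg3, Mirg and Dio3 thus all lay more than 2-fold lower for Old p16-/- over Old. In that comparison 6.61% of all counted genes were at least 2-fold lower. For Old over Young they lay in both directions. Relative to Young, Old p16-/- was higher for Dio3 (1.06) and lower for Dlk1 (-2.92), Meg3 (-1.30) and Mirg (-1.38).

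**Figure D3:**
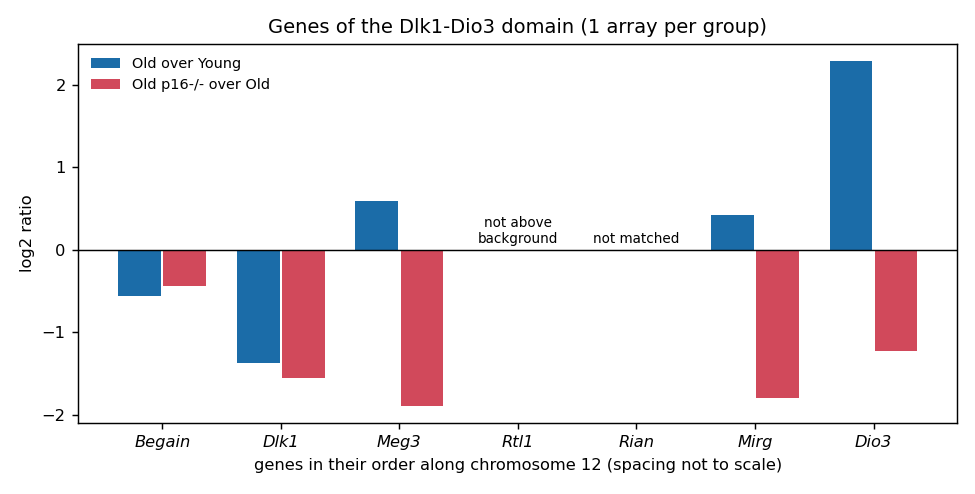
Log2 ratios (vertical axis) of the genes of the Dlk1-Dio3 domain in their order along chromosome 12 (horizontal axis, not to scale), blue for Old over Young and red for Old p16-/- over Old, from 1 array per group. All 5 red bars lie below 0, from -0.44 for Begain to -1.89 for Meg3, whereas the blue bars run from -1.37 for Dlk1 to 2.29 for Dio3.

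Neighbours in the other domains lay in both directions. Ddc, an amino acid decarboxylase next to Grb10, read 3994, 2254 and 6583. It stood at 1.54 for Old p16-/- over Old, against -1.40 for Grb10, and a second Ddc probe gave 0.99. Sgce, a sarcoglycan gene beside Peg10, read 2007, 2714 and 1928, with 0.50 and -0.50. Ppp1r9a, farther along the Peg10 domain, read 344, 165 and 427. Its ratio for Old p16-/- over Old was 1.37, of the same sign as that of Peg10 and larger, and its other probe was not above background. In the Peg3 domain, Usp29 was higher on Old p16-/- than on Old by a bound of 2.53, where Peg3 was not above background. Copg2, a coat protein gene overlapping the Mest domain, was at 0.03 and 0.18, and at 0.05 and -0.11 by another probe. Phactr2 and Ltv1, near Plagl1, were at -0.52 and 0.11 for Old p16-/- over Old. In the domain of Ndn, Peg12 was at -0.56 and 0.19 for the comparisons Old over Young and Old p16-/- over Old, and Snrpn, a splicing factor gene, at -0.01 and 0.67, the latter with 0.71 and 0.64 by other probes. Igf2, the growth factor gene beside H19, was not above background on any array, with readings of 10.4 to 12.3.

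Counted by size, 1 of the 7 imprinted genes counted in the comparison of Old with Young was at least 2-fold apart (Dlk1, lower) and none was higher. Among all 14550 counted genes 6.09% were apart, 2.92% higher and 3.17% lower. On Old p16-/- relative to Old, 1 of 7 was at least 2-fold higher (Plagl1) and 3 were lower (Dlk1, Meg3 and Grb10), where 12.5% of 14695 genes were apart, 5.89% higher and 6.61% lower. Relative to Young, 2 of 7 were higher on Old p16-/- (Plagl1 and Mest) and 4 lower (Dlk1, Meg3, Grb10 and Ndn), where 13.3% of 14283 genes were apart, 6.34% higher and 6.96% lower. That last comparison shares its arrays with the other comparisons. A gene's log2 ratio there is the sum of its other ratios where none of them is a bound, which does not hold for Peg10 or for medians. The median log2 ratio of the 7 genes was 0.00 for Old over Young, -0.51 for Old p16-/- over Old and -1.01 for Old p16-/- over Young. The median of 0.00 is the bound of Peg10. Over all counted genes the medians were 0.00, 0.02 and 0.03. The genes had been chosen as a set with earlier results of these data known.

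Among all counted genes, Dlk1 had the lowest place of the set for Old p16-/- over Young, at rank 107 from the bottom of 14283. Meg3 stood at rank 312 from the bottom of 14695 for Old p16-/- over Old, and Grb10 at rank 593. Plagl1 stood at rank 351 from the top in that comparison. By parental copy, only 2 of the 4 maternally transcribed genes were matched, Meg3 and Grb10. Both were lower on Old p16-/- than on Old, where 6864 of all 14695 counted genes lay below 0. By their brightest probes, the paternally transcribed genes lay on both sides, with Plagl1, Mest and Peg10 above 0 and Dlk1 and Ndn below. A dimmer probe of Plagl1 and a dim probe of Mest went the other way, and Peg10 sat at the edge of detection.

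**Figure D4:**
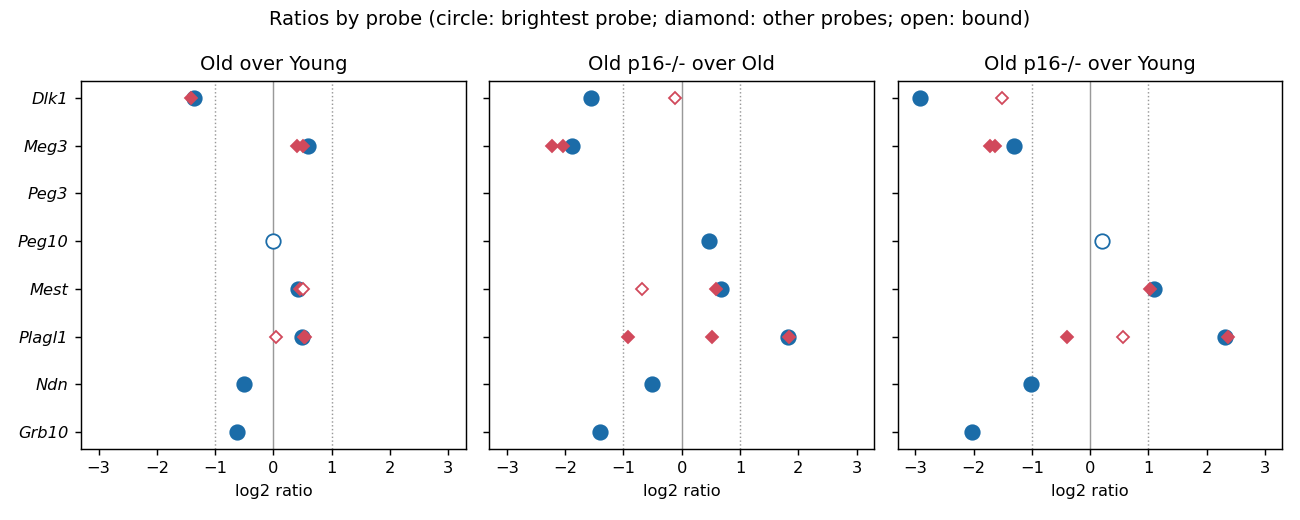
Log2 ratio (horizontal axis) of each probe of the 8 matched genes (vertical axis) in the 3 comparisons; large blue circles are the brightest probe of a gene, red diamonds its other probes, open symbols are bounds, and dotted lines mark 2-fold. The probes of Meg3 cluster on the lower side for Old p16-/- over Old, and those of Plagl1 spread from -0.93 to 1.84.

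A list of 69 other imprinted genes was read in the same way, of which 63 were matched and 43 were above background on all 3 arrays. For Old over Young, 1 gene of 47 stood 2-fold or more above Young (Dio3) and 1 below (Slc38a4, an amino acid transporter gene, by a bound of -1.32), where 2.92% and 3.17% of all counted genes did. Between Old p16-/- and Old, 6 of 48 were higher and 4 lower, where 5.89% of all counted genes were higher and 6.61% lower, with a median of 0.02, equal to that of all genes. The 6 were Cdkn1c at 1.18, Ddc, Ppp1r9a at 1.37, the Polycomb-related gene Sfmbt2 at 1.86, and, by bounds, Usp29 (at least 2.53) and Zdbf2 (at least 4.44). Cdkn1c encodes the cell cycle inhibitor p57 and read 460, 324 and 734. The 4 lower genes were Mirg, Dio3, the transporter gene Slc22a18 at -1.11 and, by a bound, Asb4 at -1.05. Against Young, 5 of 46 were higher on Old p16-/- and 1 lower, where 6.34% and 6.96% of all genes were. The broadly transcribed Gnas, which encodes a G protein subunit, was at 0.01 for Old over Young and -0.08 for Old p16-/- over Old, and Igf2r, the receptor that removes Igf2, was at -0.03 and 0.54.

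**Figure D5:**
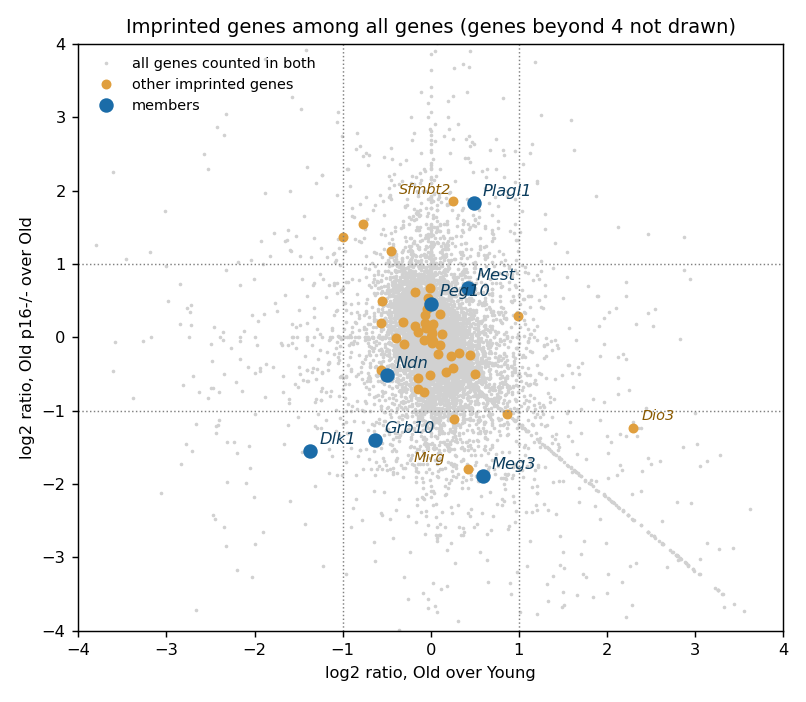
Log2 ratio of Old over Young (horizontal axis) against Old p16-/- over Old (vertical axis) for all genes counted in both (grey), the other imprinted genes (orange) and the genes described here (blue); dotted lines mark 2-fold. The axes share the Old array, so a high or low reading there moves a gene along the falling diagonal; Dlk1 and Grb10 lie in the lower left, Meg3 with Mirg in the lower middle and Plagl1 near Sfmbt2 at the top.

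Of 20 genes that keep, write or remove imprint methylation, 19 were above background on all 3 arrays. None was at least 2-fold apart for Old over Young, where 6.09% of all counted genes were. The median there was -0.11, and 13 of 19 lay below 0, as did 7278 of all 14550 counted genes. Between Old p16-/- and Old the median was 0.18, with 13 above 0, as were 7645 of all 14695 counted genes. In that comparison 1 was at least 2-fold lower, where 6.61% of all genes were, and none higher, where 5.89% were. The lower gene was Dnmt3l, a cofactor of the de novo methyltransferases, at -1.10 (signals of 207, 207 and 96.9). Dnmt1, the maintenance methyltransferase, read 1413, 1197 and 1514, with -0.18 and 0.34. Its partner Uhrf1 read 8278, 6767 and 12230, with -0.23 and 0.85. Zfp57 was at 0.24 and -0.11, and its corepressor Trim28 at -0.11 and 0.23. Tet1, which oxidises methylcytosine, was at 1.19 for Old p16-/- over Young by its brightest probe and at 0.16 by another. Dppa3, which protects methylation in the early embryo, was not above background on any array.

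Around Dlk1, 12 of 17 listed Notch pathway genes were counted for Old p16-/- over Old, 2 of them at least 2-fold higher and none lower, where 5.89% of all genes were higher and 6.61% lower. These were the receptor gene Notch1, which read 156, 118 and 605 (2.36 for Old p16-/- over Old; another probe was not above background), and the ligand gene Jag2 at 1.20. The Notch target Hes1 read 385, 567 and 357, with 0.62 and -0.67, and Hey1 was at -0.23 and 0.15. For Old over Young the ligand gene Dll3 was at 2.47 and at 0.32 by another probe.

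In the insulin and Igf list around Grb10, 2 of 15 genes reached 2-fold higher for Old p16-/- over Old and none was that much lower, against 5.89% and 6.61% of all genes. They were Grb14, a relative of Grb10, which read 9017, 9655 and 23166 (1.26), and Grb7 of the same family, by a bound of 1.37. Grb14 thus lay opposite to Grb10 in that comparison. The receptor gene Igf1r was at 0.33. The probes of the receptor gene Insr disagreed, at 0.48 for the brightest and at -1.50 and -0.42 for the others, all above background on all 3 arrays. For Old over Young, Igf1 was at 1.10, with 1.09 and 1.04 by other probes above background on all arrays. Igf2bp1 and Igf2bp3, fetal RNA-binding proteins that bind Igf2 transcripts, were at -1.65 and -2.72, with readings for Igf2bp3 of 501, 73.2 and 99.2.

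Genes with a pattern like that of a member were sought among 8907 genes above background on all 3 arrays with a signal of at least 1000 on 1 of them, by the distance between their pairs of ratios (Old over Young, Old p16-/- over Old). Dlk1 had 1 gene within 0.25 in both ratios, Plagl1 had 8, Grb10 13 and Meg3 23. The nearest were Apoe for Dlk1 (distance 0.23), Calml4 for Plagl1 (0.091) and Cfap69 for Meg3 (0.033). Mest and Ndn, with smaller ratios, had 75 and 82 such genes. Likeness over 3 arrays is a description of these arrays.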

How the data were processed

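The authors deposited 1-colour Agilent scanner files with linear spot intensity (Cy3) from Feature Extraction 11.5.1.1, designed on build mm9, per the file headers. The processed signal is background-subtracted and spatially detrended, per the file headers, and not normalized between arrays. The deposited value table held the same intensity (38880 of 38880 probes spotted once equal within a relative 0.0001 on each array). Other deposited columns, flags of Feature Extraction, gave detection (well above background) and outlier spots, which the authors' files mark and which were left out (246 to 267 per array), as were 1377 control spots. No spot was saturated.

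Log2 signals were averaged over a probe's spots and each array's 75th percentile over probes was subtracted (Python 3.11.15, pandas 2.3.3). Probe accessions were named through a RefSeq table of GRCm38.p6 (27508 of 39429 probes). A gene stands at its brightest probe. A ratio was counted where at least 1 of the 2 arrays was above background, by any probe. Where 1 was, it is a bound against the dim array's lowest level above background or the probe's own, if higher, and 0 if it would change sign. Apart means at least 2-fold. With 1 array per group no test was possible, and the precision is limited by that number of arrays. The code was tested on simulated data. Alternatives used limma 3.58.1, with normexp on median signals, since the mean signal planned for it was not used here.

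Genes named are all members with all probes, list genes at least 2-fold apart, neighbours in a member's domain, and up to 3 nearest genes by pattern. The members and lists were chosen with earlier results of these data known. Domain neighbours outside that rule, Gnas, Igf2r, Dnmt1, Uhrf1, Zfp57, Trim28, Dppa3, Hes1, Hey1, Igf1r and Insr were named after their values were seen. The same holds for Cd81, Tssc4, Nap1l4 and Kcnq1ot1. Some results are not reported here.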

Additional observations from a re-analysis of the deposited data

How the results depend on the processing

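Of 10 alternatives, none turned a 2-fold ratio of a member to the other direction. For the members, the median for Old over Young was -0.20 with no background filter and -0.50 when the brighter array had to reach a signal of 1000, for Old p16-/- over Old -0.02 and -1.40, and for Old p16-/- over Young -0.22 and -1.30. These filters change which members enter (8 with none, 3 to 5 at the signal limit). Members at least 2-fold higher for Old p16-/- over Old numbered 2 with no background filter, where Peg3 enters below background, and 0 with the mean of a gene's probes, where Plagl1 is at 0.81; that mean also puts Dlk1 at -0.83, so that 2 members are lower and not 3. At the signal limit 2 are lower, since Dlk1 does not enter. Members higher against Young numbered 1 with normexp (Mest at 0.95) and 1 at the signal limit, and 3 members and not 4 were lower with normexp or quantile normalization (Ndn at -0.91 and -0.99). For the other imprinted genes and Old over Young, those higher numbered 2 with cyclic loess and 3 with no background filter, and those lower 0 with normexp, with both arrays above background or at the signal limit, and 2 with the array median, quantile normalization, cyclic loess or no background filter. Between Old p16-/- and Old, 1 was higher at the signal limit and 7 were lower with no background filter. Against Young, 3 were higher with normexp or with both arrays above background and 1 at the signal limit, and 2 were lower with cyclic loess and 4 with no background filter. Where no filter is named, the cause was not tested. With no background filter, the median of all genes for Old p16-/- over Old was 0.11. No array could be left out, since each group has 1. No paired analysis was possible because each group has 1 array.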

Other observations

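The imprinted cluster around Cdkn1c on chromosome 7 did not move as a block between the arrays. Cdkn1c was higher on Old p16-/- than on Old (1.18) and its neighbour Slc22a18 lower (-1.11; signals of 1840, 2111 and 985), while Nap1l4 and Tssc4 were at 0.16 and -0.04 and the antisense RNA Kcnq1ot1 at -0.01. Cd81, a tetraspanin gene of the same cluster, read 178970, 173385 and 181696, with ratios of 0.01 and 0.06. The strand that each probe detects was not looked up, so the values of antisense transcripts such as Kcnq1ot1 are uncertain.

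Sfmbt2 read 231 on Young, 264 on Old and 963 on Old p16-/-, and a second probe gave 2.11 against 1.86 for Old p16-/- over Old. Its remaining probe was not above background on any array. Zdbf2 read 779 on Old p16-/- and was not above background on either WT array, while a second probe of it was not above background on any array. Usp29, a neighbour of Peg3, read 207 on Old p16-/- and 11.9 and 7.65 on Young and Old, where it was not above background. Ampd3, an AMP deaminase gene, was at 1.27 for Old p16-/- over Young.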
